A study of Homo sapiens with 3 samples.

Results

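The genes described here are the human splicing factor genes that carry one of 6 family names: SF3A or SF3B, SNRP, SRSF, HNRNP, PRPF and LSM. They were chosen by symbol alone from the 19970 protein-coding genes of GENCODE release 44 on chromosomes 1 to 22 and X of GRCh38, and the rule itself uses no measured value, although the families were picked for description with earlier results of these data known. The pattern found 87 genes: 9 SF3, 12 SNRP, 12 SRSF, 26 HNRNP, 13 PRPF and 15 LSM genes. It also took in LSMEM1 and LSMEM2, membrane proteins whose names begin with the same letters but which are not Sm-like proteins, and HNRNPCL1 to HNRNPCL4, HNRNPA1L2 and HNRNPA1L3, gene copies named for HNRNPC and HNRNPA1. All 87 were kept.

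Occupancy was measured by chromatin immunoprecipitation and sequencing (ChIP-seq) in neural stem cells of wild-type genotype (WT) that had been made from the established embryonic stem cell line H9. The cells grew on Geltrex with EGF and FGF, and chromatin was fixed with disuccinimidyl glutarate followed by formaldehyde. There was 1 library for the chromatin remodeler CHD8 and 1 for TRRAP, a scaffold subunit of histone acetyltransferase complexes, each read here as a peak list, and the IgG control library was not analysed here. All libraries came from the same untreated wild-type line, so the only contrast is the antibody.

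Splicing removes introns from a new transcript. Small nuclear ribonucleoproteins (snRNPs), which are RNAs held by a ring of Sm or Sm-like proteins, recognise the ends of the intron and assemble with further factors into the spliceosome. SNRP genes encode Sm ring and other snRNP proteins, SF3 genes encode the subunits of U2 snRNP that grip the branch point, and PRPF genes encode factors of the U4/U6.U5 tri-snRNP and of later steps. LSM genes encode the Sm-like proteins of U6 RNA and of other RNAs. SRSF and HNRNP proteins bind the transcript itself and steer the choice of splice sites. Mutations in CHD8 are known from autism, and neural development is known for its many alternative splicing switches.

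A promoter here reaches from 1 kb before to 1 kb past the start of a gene's canonical transcript, and a gene carries a promoter peak if at least 1 bp of a peak falls in this window. Reference sequence from the last 120 bases before the start shows the range of CpG content over the members. The first group of sequences comes from members with a peak in both lists, HNRNPA0 (GRCh38 chr5:137754364-137754483, minus strand), HNRNPDL (chr4:82430463-82430582, minus strand) and LSM14A (chr19:34172384-34172503, plus strand). The last group comes from members with no peak, HNRNPA1L2 (chr13:52642311-52642430, plus strand), HNRNPCL3 (chr1:13060649-13060768, plus strand) and LSMEM2 (chr3:50278967-50279086, plus strand). Capitals mark every CpG dinucleotide, and sequences read 5′ to 3′ along the gene's strand.
HNRNPA0: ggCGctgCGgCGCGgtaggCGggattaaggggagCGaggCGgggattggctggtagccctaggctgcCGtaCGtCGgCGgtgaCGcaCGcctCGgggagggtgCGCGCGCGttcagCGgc
HNRNPDL: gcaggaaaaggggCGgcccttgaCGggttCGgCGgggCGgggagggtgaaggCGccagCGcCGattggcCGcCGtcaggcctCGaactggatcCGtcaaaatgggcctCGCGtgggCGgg
LSM14A: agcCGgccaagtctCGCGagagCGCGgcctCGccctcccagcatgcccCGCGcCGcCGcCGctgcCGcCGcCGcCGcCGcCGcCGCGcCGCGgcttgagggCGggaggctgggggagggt
HNRNPA1L2: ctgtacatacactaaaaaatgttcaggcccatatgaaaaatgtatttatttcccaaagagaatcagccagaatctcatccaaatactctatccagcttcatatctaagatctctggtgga
HNRNPCL3: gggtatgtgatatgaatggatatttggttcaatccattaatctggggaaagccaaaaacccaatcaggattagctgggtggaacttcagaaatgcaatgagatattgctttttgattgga
LSMEM2: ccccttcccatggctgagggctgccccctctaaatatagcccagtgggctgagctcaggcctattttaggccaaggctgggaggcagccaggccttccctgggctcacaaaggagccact
The occupied stretches held 19, 15 and 22 CpG dinucleotides, respectively, and each unoccupied stretch held 0. These 6 were picked as illustrations after their peaks and sequences were known, and the 3 unoccupied ones are the only peakless members at 0. Over the 86 members whose sequence was read this way, the count ran from 2 to 23 with a median of 13 at the 58 genes with both peaks, from 5 to 21 with a median of 11 at 20 genes with CHD8 alone, and from 0 to 4 with a median of 1 at the 8 genes with neither. The ranges of occupied and unoccupied genes overlap: SRSF8 and SNRPF, which had both peaks, held 2 and 4, and HNRNPCL2, which had none, held 4.

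CHD8 had a promoter peak at 79 of the 87 genes (90.8%, Wilson 95% interval 82.9 to 95.3), beside 56.1% of all 19970 protein-coding genes. TRRAP had one at 58 genes (66.7%, 56.2 to 75.7), beside 35.1% of all genes. Each of these 58 also carried a CHD8 peak, so 66.7% of the family genes carried both, beside 34.1% of all genes. No member had TRRAP without CHD8 (0 of 87, interval up to 4.23%), and 198 genes of the whole set (0.991%) did. With 1 library per antibody no difference could be tested, and the intervals cover counting error only.

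Most of these genes start in CpG-rich sequence, and CpG content over a longer stretch went with occupancy. The CpG ratio (observed over expected CpG from 500 bp before to 500 bp past the start) was at least 0.6 at 79 members, and all 79 had a CHD8 peak, while the 8 members below 0.6 had neither peak. Among all genes with a ratio of at least 0.6, 77.8% had CHD8, 50.2% had TRRAP and 48.9% had both. The members above that ratio had CHD8 at 100%, and TRRAP, always together with CHD8, at 73.4% (62.8 to 81.9). Both shares were above those of all genes with a ratio of at least 0.6. The sets were not matched within that class: the median ratio was 0.883 in the members and 0.802 in all genes of the class. The part of CpG ratio in the higher shares was not tested. Head-to-head neighbours, a protein-coding gene that starts on the other strand within 1 kb, were found at 18 members (20.7%), beside 9.49% of all genes. Members without such a neighbour had CHD8 at 61 of 69 promoters (88.4%) and TRRAP at 45 (65.2%), beside 52.1% and 32.4% of all genes without one.

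**Figure D1:**
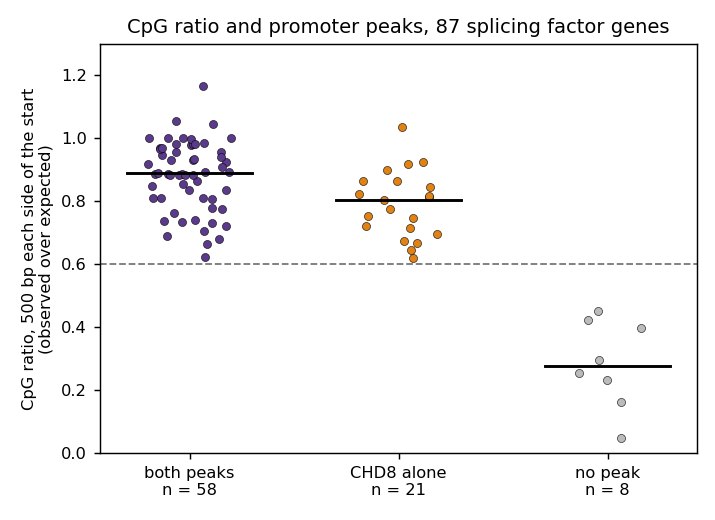
CpG ratio (vertical axis, observed over expected CpG within 500 bp of the start, no unit) of the 87 genes, split by promoter peak; points are genes, bars are medians and the dashed line is a ratio of 0.6. The 58 genes with both peaks and the 21 with CHD8 alone lie above the line, and the 8 with no peak lie below it.

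The 8 members without a peak were the copies and the misnamed genes. HNRNPCL1, HNRNPCL2, HNRNPCL3 and HNRNPCL4 had CpG ratios of 0.398, 0.422, 0.298 and 0.453. HNRNPA1L2 and HNRNPA1L3 had ratios of 0.234 and 0.164. LSMEM1 and LSMEM2 had ratios of 0.256 and 0.0488. Part of this sequence occurs more than once in the genome: of the 32-base words in the window, 2.84% were single-copy at HNRNPCL4, 3.25% at HNRNPCL3, 43.2% at HNRNPCL2, 46.1% at HNRNPCL1 and 66.6% at HNRNPA1L2. At HNRNPA1L3, LSMEM1 and LSMEM2 the shares were 100%, 91.8% and 91.3%, so those 3 windows are mostly or wholly single-copy. The part of copy number in the other empty windows was not tested. The parent genes HNRNPC and HNRNPA1 both carried both peaks.

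The 6 name groups differed mainly in TRRAP. CHD8 was present at all 9 SF3, 12 SNRP, 12 SRSF and 13 PRPF genes, at 13 of 15 LSM genes and at 20 of 26 HNRNP genes. Both peaks were present at 11 of 12 SRSF genes (91.7%, interval 64.6 to 98.5), 9 of 12 SNRP genes (75%, 46.8 to 91.1), 18 of 26 HNRNP genes (69.2%, 50.0 to 83.5), 5 of 9 SF3 genes (55.6%, 26.7 to 81.1), 7 of 13 PRPF genes (53.8%, 29.1 to 76.8) and 8 of 15 LSM genes (53.3%, 30.1 to 75.2). The intervals of neighbouring groups in this order overlap widely, and those of the highest and the lowest group overlap as well. Among genes with a CHD8 peak, which leaves out the copies, TRRAP was found at 18 of 20 HNRNP genes (90%) and 11 of 12 SRSF genes, beside 60.7% of all genes with a CHD8 peak.

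**Figure D2:**
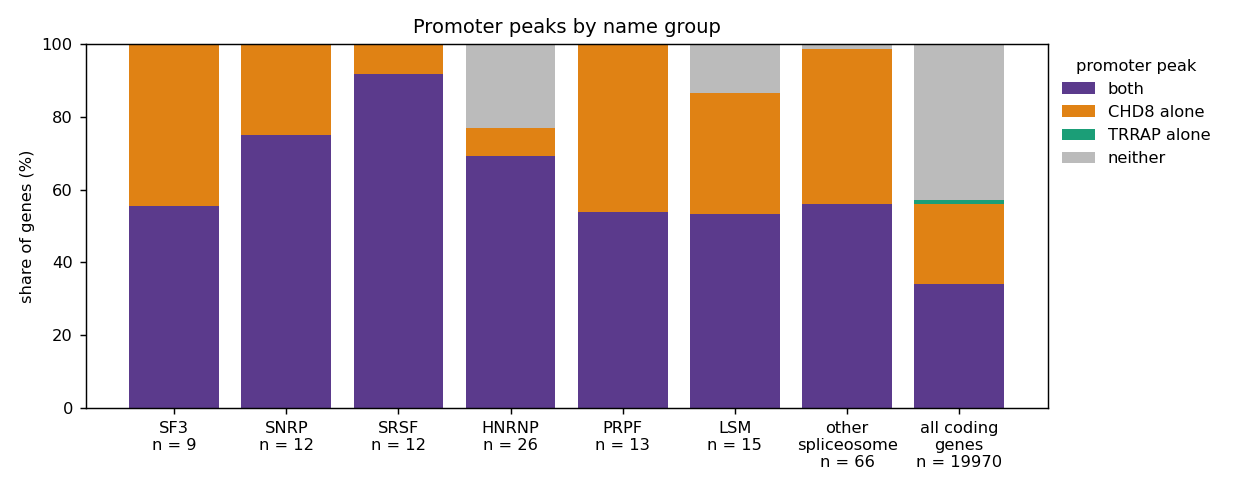
Share of genes (vertical axis, percent) with both promoter peaks, CHD8 alone, TRRAP alone or neither, for the 6 name groups, 66 other spliceosome genes and all 19970 coding genes. SRSF genes had both peaks at 91.7% and LSM genes at 53.3%, beside 34.1% of all genes.

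Of the 21 genes with CHD8 alone, 18 came from the SNRP, SF3, PRPF and LSM groups. They were SNRPD2, SNRPB2 and SNRPN; SF3B4, SF3A3, SF3B6 and SF3B5; PRPF31, PRPF3, PRPF4, PRPF18, PRPF19 and PRPF6; LSM12, LSM1, LSM8, LSM6 and LSM11; SRSF12; and HNRNPF and HNRNPH2. Strong CHD8 peaks were among them. SF3B4, a U2 subunit that contacts the transcript near the branch point, had a CHD8 fold of 39.8 (chr1:149927550-149928543) and SF3A3 one of 34.9 (chr1:37989923-37990342), both above the 95th percentile of genes with a CHD8 peak (percentiles 98.3 and 96.9). SF3B6, LSM12 and LSM1, which had the next highest folds of this class, were at 21.2, 19.0 and 18.1. Here and below, fold is the authors' deposited ratio of signal at a peak over the caller's background, taken from the strongest promoter peak, and it is compared within 1 list only.

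CHD8 peaks at splicing genes were high for that list. The median CHD8 fold was 19.0 over the 79 members with a peak (25th to 75th percentile 14.6 to 25, range 7.54 to 48.2), beside 12.0 over the 11208 genes with one (9.31 to 16.4). Of the members, 22 (27.8%) were above the 90th percentile of those genes, beside 9.83% of all genes with a peak. The median TRRAP fold was 10.1 over 58 members (7.69 to 14.1, range 5.30 to 27.8), beside 8.65 over 7000 genes (7.21 to 11.5), and 11 members (19.0%) were above the 90th percentile, beside 9.97%. In each list the members' median was above that of all genes with a peak.

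**Figure D3:**
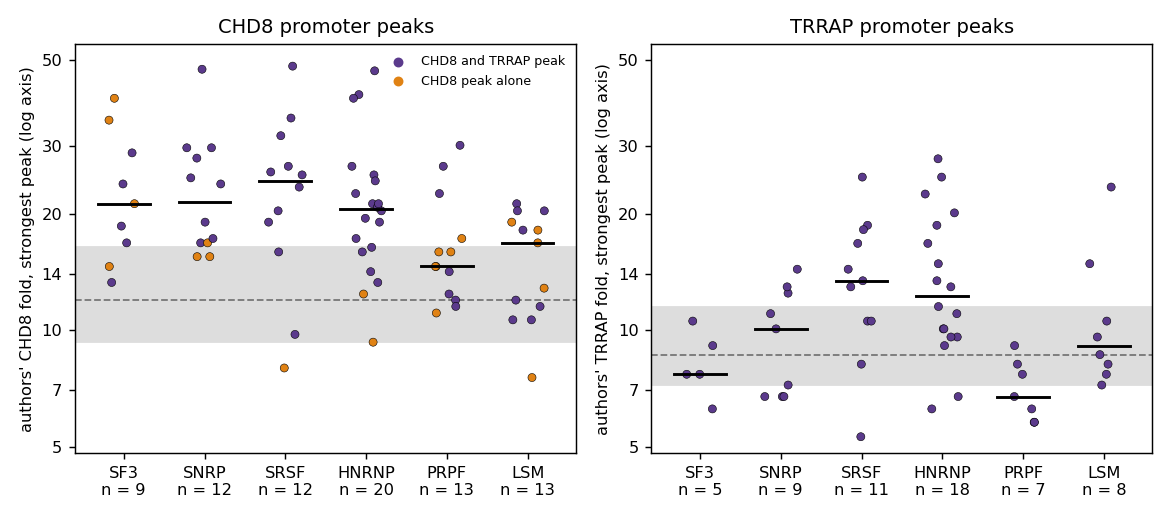
Authors' fold of the strongest promoter peak (vertical log axes, ratio) of each gene in the CHD8 list (left) and the TRRAP list (right) by name group; bars are group medians, and the dashed line and grey band are the median and the 25th to 75th percentile of all genes with a peak. All 6 CHD8 medians lie above the dashed line, from 14.6 in PRPF to 24.3 in SRSF, while the TRRAP medians of SF3 (7.69) and PRPF (6.73) lie below it.

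Among the SNRP genes, the CHD8 fold ranged from 15.5 at SNRPB2, a U2 snRNP protein, and SNRPD2 to 47.3 at SNRPF, with a median of 21.5. SNRPF encodes a subunit of the Sm ring, and its CHD8 peak (chr12:95858754-95859370) had a −log10 q of 149. Its TRRAP fold of 6.73 was the lowest of the group, together with SNRPD1 and SNRPD3. The highest TRRAP fold of the group was 14.4 at SNRPE, another Sm ring subunit, whose CHD8 fold was 24.8. SNRPB and SNRPD3, also of the Sm ring, had CHD8 folds of 29.6 and TRRAP folds of 10.1 and 6.73. SNRPA, the U1 protein that binds a stem loop of U1 RNA, had 27.9 and 12.9. The summit of its CHD8 peak of 27.9 lay at −734 bp from the canonical start, toward the start of ACTMAP. The CHD8 peak with the summit nearest the SNRPA start had a fold of 5.77. Of the 7 Sm ring genes SNRPB, SNRPD1, SNRPD2, SNRPD3, SNRPE, SNRPF and SNRPG, only SNRPD2 lacked TRRAP.

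SNRPN, an imprinted gene that encodes a neuronal relative of SmB, stood apart from its group by the place of its peaks. Its canonical window touched a CHD8 peak of fold 9.31 with a summit 27 bp past the start and another of fold 16.8 (chr15:24955650-24956728) with a summit 1358 bp past it, inside an intron. Neither overlapped a TRRAP peak. A far upstream start of the same gene carried a CHD8 peak of fold 7.10 with its summit at −98393 bp from the canonical start, and a TRRAP peak of fold 7.21 overlapped it (chr15:24856521-24856645).

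The SF3 genes had CHD8 folds from 13.3 at SF3A2 to 39.8 at SF3B4, with a median of 21.2. TRRAP was found at SF3A1, SF3A2, SF3B1, SF3B2 and SF3B3, with folds between 6.26 at SF3A1 and 10.6 at SF3B3. SF3A1 thus paired a CHD8 fold of 28.8 with the lowest TRRAP fold of its group. SF3B1, which encodes the large subunit that clamps the branch-point duplex, had 16.8 for CHD8 and 9.12 for TRRAP. The genes with the highest CHD8 folds of the group, SF3B4 and SF3A3, had no TRRAP peak.

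The PRPF genes had the lowest medians of the 6 groups in both lists, 14.6 for CHD8 and 6.73 for TRRAP. CHD8 folds ran from 11.1 at PRPF6, a bridging protein of the tri-snRNP, to 30.1 at PRPF38B. TRRAP folds ran from 5.78 at PRPF38B to 9.12 at PRPF8, the large U5 protein at the catalytic centre. PRPF8 had a CHD8 fold of 14.2. PRPF3 and PRPF31, proteins of U4/U6 snRNP, had CHD8 folds of 15.9 and 17.3 and no TRRAP peak, as did PRPF19, a ubiquitin ligase at the core of the complex named after it, with 14.6. Most TRRAP peaks of PRPF genes lay in the lower part of that list. With only peaks above each list's median rank by significance, PRPF8 alone of the 13 PRPF genes (7.69%) kept both peaks. Over all genes the share with both peaks fell from 34.1% to 16.8% under the same cut.

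The LSM genes had CHD8 folds from 7.54 at LSM11 to 21.2 at LSM14A, with a median of 16.8, and TRRAP folds from 7.21 at LSM4 to 23.5 at LSM14B. LSM14B, a paralogue of the processing-body protein LSM14A, was the only member outside the SRSF and HNRNP groups above the 90th percentile of TRRAP folds, and its CHD8 fold was 20.4. LSM14A had 21.2 and 8.65. LSM2 and LSM4, which belong to the ring on U6 RNA, both had a CHD8 fold of 10.6 and had TRRAP folds of 8.17 and 7.21. LSM1 replaces LSM8 in the cytoplasmic ring that acts in mRNA decay, and both genes carried CHD8 alone, with folds of 18.1 and 16.8. LSM10 and LSM11 are subunits of the ring of U7 snRNP, which acts on histone transcripts. LSM10 had both peaks (11.5 and 7.69), and LSM11 had CHD8 alone at the lowest fold of any member.

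The SRSF genes had the highest medians in both lists, 24.3 for CHD8 and 13.4 for TRRAP. The highest CHD8 fold of any member was 48.2 at SRSF5 (chr14:69766834-69767945, −log10 q 153), and the same gene had the lowest TRRAP fold of any member, 5.30, from a peak of 136 bp with its summit 567 bp past the start. SRSF11 had the highest TRRAP fold of the group, 24.9, and a CHD8 fold of 15.9, below the CHD8 median of its group. SRSF1, the general splicing activator first known as SF2, had 31.8 and 13.4, SRSF2 had 25.7 and 10.6, SRSF3 had 26.5 and 12.9 and SRSF7 had 23.5 and 18.2. These 4 lay above the list's 75th percentile for CHD8, and all but SRSF2 also did so for TRRAP. SRSF12 was the only one without TRRAP, and its CHD8 fold of 7.98 was the lowest of the group.

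The HNRNP genes held the 3 next highest CHD8 folds after SRSF5 and SNRPF: 46.9 at HNRNPD (chr4:82373056-82374745), 40.7 at HNRNPA3 and 39.8 at HNRNPUL1, the last level with SF3B4. The lowest CHD8 fold was 9.31 at HNRNPH2. TRRAP folds ran from 6.26 at HNRNPLL to 27.8 at HNRNPDL (chr4:82429415-82430812), the highest of any member. HNRNPK, a protein that binds C-rich RNA, had 20.8 for CHD8 and 24.9 for TRRAP, and it has a head-to-head neighbour, RMI1. HNRNPA2B1 had 21.2 and 18.7, HNRNPH1 had 16.4 and 13.4, HNRNPA1 had 26.5 and 9.60, HNRNPU had 22.6 and 10.1, HNRNPC had 21.2 and 9.12, and HNRNPL had 19.5 and 6.73. By strongest peak, all 7 were above the median of all genes for CHD8, and all but HNRNPL were above it for TRRAP. The HNRNPA2B1 peak of 18.7 had its summit at −847 bp from the canonical start, toward the start of CBX3. The TRRAP peak nearest the HNRNPA2B1 start had a fold of 7.21, below the median of 8.65 over all genes with a TRRAP peak. The summit of the stronger HNRNPC peak in the CHD8 list lay in sequence present 2 times in the genome, and it was the only summit among the members' promoter peaks with more than 1 copy.

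Set together, the genes whose proteins bind transcripts (SRSF and HNRNP) and those of the core and Sm-like machinery (SF3, SNRP, PRPF and LSM) differed in how often TRRAP joined CHD8. This grouping was made after the values were seen and is given as a description. Of the genes with CHD8, TRRAP was present at 29 of 32 SRSF and HNRNP genes (90.6%, 75.8 to 96.8) and at 29 of 47 of the rest (61.7%, 47.4 to 74.2). The latter share is close to the 60.7% of all genes with CHD8. TRRAP folds above the 90th percentile were found at 10 of the 29 SRSF and HNRNP genes with TRRAP (34.5%). Of the rest, they were found at 1 of 29 (3.45%), LSM14B. HNRNPA2B1 is among the 10 by its peak with a summit at −847 bp from the canonical start. HNRNPA2B1, HNRNPDL and HNRNPK, all among the 10, have a head-to-head neighbour.

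Several measures moved with this split. The median CpG ratio was 0.952 in the SRSF and HNRNP genes with CHD8 and 0.810 in the rest, the median CHD8 fold was 21.0 and 17.3, and the median width of the CHD8 peak was 1274 and 790 bp. Over all genes with CHD8, TRRAP was present at 42.9% of those with a CpG ratio under 0.7 and at 76.2% of those with a ratio of at least 0.9, and at 42.3% of those with a CHD8 fold under 10 and 76.3% of those at 20 or above. At a CpG ratio of 0.9 and over, TRRAP was present at 19 of 19 SRSF and HNRNP genes and at 7 of 11 of the rest (63.6%, 35.4 to 84.8). At ratios of 0.8 to 0.9 the counts were 9 of 10 and 10 of 16, and at 0.7 to 0.8 they had the other order, 1 of 3 and 8 of 11. The ratios under 0.7 held only genes of the rest, 4 of 9 with TRRAP.

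By CHD8 fold, TRRAP was present at 19 of 19 SRSF and HNRNP genes and 14 of 17 of the rest at 20 and over, at 9 of 10 and 15 of 29 from 10 to 20, and at 1 of 3 and 0 of 1 under 10. By width of the CHD8 peak, it was present at 22 of 22 and 11 of 14 from 1000 bp, at 7 of 8 and 16 of 26 from 500 to 1000 bp, and at 0 of 2 and 2 of 7 under 500 bp. The SRSF and HNRNP share was the lower one at CpG ratios of 0.7 to 0.8 and at widths under 500 bp. These classes held 3 and 2 SRSF and HNRNP genes, and 11 and 7 of the rest. It was the higher one in the other classes that held genes of both sets, among them CHD8 folds under 10, with 3 genes and 1 gene. The part of CpG ratio, fold and width in the split was not tested.

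CHD8 covered a wide stretch at many of these genes. The strongest CHD8 promoter peak was at least 1000 bp wide at 36 of 79 members (45.6%, 35.0 to 56.5), beside 18.5% of all genes with a CHD8 peak. HNRNP genes reached that width at 14 of 20 and SRSF genes at 8 of 12, SNRP genes at 5 of 12, PRPF at 4 of 13, SF3 at 3 of 9 and LSM at 2 of 13. The widest were at HNRNPA2B1 (2731 bp), HNRNPDL (2099 bp), SRSF2 (1867 bp), HNRNPA1 (1863 bp) and HNRNPUL2 (1757 bp). Of these 5, HNRNPA2B1, HNRNPDL, SRSF2 and HNRNPA1 have a head-to-head neighbour, CBX3, ENOPH1, MFSD11 and CBX5, so their peaks lie over a pair of starts. Of the 36 wide peaks 33 were at genes with TRRAP (91.7%). Among all genes, 85.5% of those with a CHD8 peak this wide had TRRAP.

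**Figure D4:**
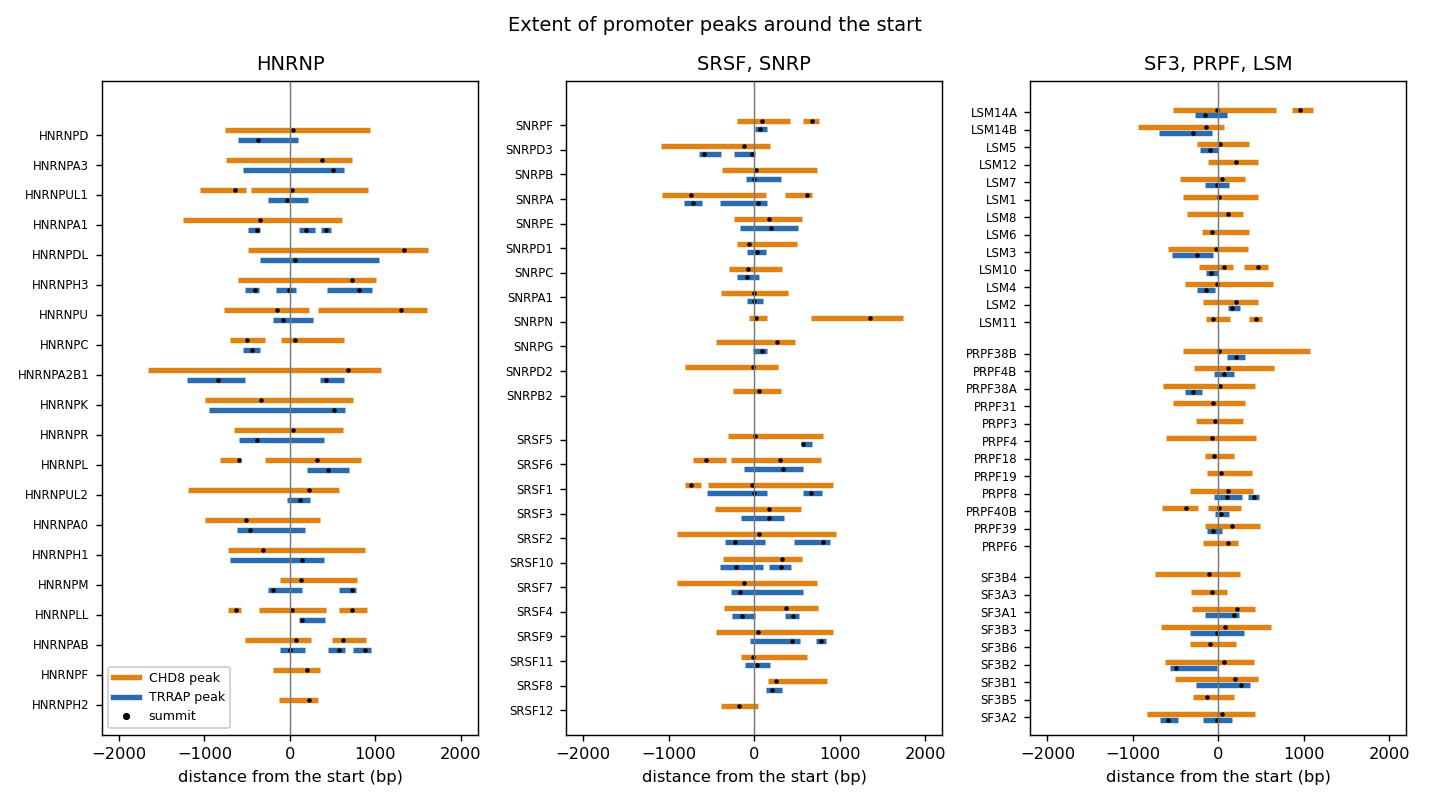
Extent of the promoter peaks of the members shown (horizontal axis, distance from the canonical start in bp, positive into the gene), with CHD8 in orange, TRRAP in blue and dots at summits. CHD8 peaks at HNRNP genes reach 2731 bp in width, and each TRRAP bar lies at least partly over a CHD8 bar.

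TRRAP peaks lay within or across CHD8 peaks, as at most promoters. All 75 TRRAP peaks in these windows shared at least 1 bp with a CHD8 peak (interval from 95.1%), beside 94% of the 7877 TRRAP promoter peaks of all genes, and 74 shared at least 50% of the shorter peak (98.7%), beside 91%. These shares are near those of promoters in general. Their summits often lay apart, as at promoters in general. Of the 75, 44 (58.7%, 47.4 to 69.1) were within 200 bp of a CHD8 summit, beside 66.1% over all genes. By group the counts were 7 of 8 at LSM, 9 of 11 at SNRP, 4 of 6 at SF3, 4 of 8 at PRPF, 8 of 16 at SRSF and 12 of 26 at HNRNP genes. Of the 96 CHD8 peaks in these windows, 60 met a TRRAP peak (62.5%, 52.5 to 71.5), beside 51.2% of the 12578 CHD8 promoter peaks of all genes. At HNRNPDL the CHD8 summit was 1338 bp past the start and the TRRAP summit 56 bp past it, within the same 2099 bp CHD8 peak.

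The summits leaned into the gene. The strongest CHD8 summit lay at or past the start at 50 of 79 members (63.3%), beside 41.7% of all genes with a peak, and 29 of these summits were in an exon and 21 in an intron of the canonical transcript. HNRNP genes did so at 16 of 20. For TRRAP the share was 32 of 58 (55.2%), beside 36.7%, with SRSF genes at 9 of 11 and LSM genes at 1 of 8. At the LSM genes the TRRAP summits therefore lay upstream, except at LSM2, where it was 157 bp past the start.

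Peaks away from the promoter window but within the gene were not more frequent than at other genes: CHD8 had one at 9 of 87 members (10.3%, beside 14.8% of all genes) and TRRAP at 8 (9.20%, beside 9.25%). The highest was a TRRAP peak of fold 23 in the first intron of HNRNPU (chr1:244862934-244863514), just outside the window and above the fold of 10.1 inside it. Its summit lay 1391 bp past the canonical start and 46 bp from the start of another transcript. HNRNPUL1 had a TRRAP peak of 17.2 and a CHD8 peak of 15.5 with summits at −1808 and −1863 bp from the canonical start, at another start of the gene. HNRNPL had CHD8 at 11.5 at a summit −2359 bp from its start, and a second TRRAP peak of HNRNPDL reached 11. HNRNPM had both proteins far inside the gene, with CHD8 at 10.6 in intron 15 (summit 43589 bp past the start) and TRRAP in exon 16. HNRNPF, which has CHD8 alone by its canonical start, carried both peaks 1344 and 1368 bp downstream, at another of its starts.

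Of the 18 head-to-head members, those with the highest CHD8 folds were SNRPD3 (29.6, with GUCD1), SF3A1 (28.8, with CCDC157), SNRPA (27.9, with ACTMAP), HNRNPA1 (26.5, with CBX5) and SRSF2 (25.7, with MFSD11). All 18 had CHD8 and 13 had TRRAP (72.2%), beside 94.2% and 60.2% of the 1895 head-to-head genes in all. A peak in such a window cannot be assigned to either gene.

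The promoters of the groups differed in their sequence words. In the 250 bases before to 50 bases after every start, both strands were searched for exact copies of 8 words: CACGTG (E-box), CCGGAAG (ETS), ATGGCGG (YY1), GCATGCG (NRF1), CCAAT (NFY), TTNGCGC (E2F), GGGGCGG (SP) and TGACGT (CREB). None of these words contains another, but their occurrences can overlap on the DNA. A match is a description of the letters and not a binding site. The ETS word was present at 6 of 9 SF3 genes (66.7%) and 7 of 12 SNRP genes (58.3%), beside 14.1% of all genes, and at 3 of 26 HNRNP genes (11.5%). The NFY word was present at 19 of 26 HNRNP genes (73.1%) and 9 of 13 PRPF genes (69.2%), beside 36.0% of all genes, and at 3 of 12 SRSF genes (25%) and 2 of 9 SF3 genes (22.2%). By occupancy, it was present at 34 of 58 members with both peaks (58.6%, 45.8 to 70.4), 8 of 21 with CHD8 alone (38.1%, 20.8 to 59.1) and 6 of 8 with neither. Over all genes the order of the occupied classes was the other way, at 34.7% with both peaks and 41.8% with CHD8 alone.

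Bases before the start of members with high folds, or of well-known ones, show these words in their setting. They are from SF3B4 (GRCh38 chr1:149927804-149927923, minus strand), SNRPE (chr1:203861479-203861598, plus strand), SNRPD1 (chr18:21612194-21612313, plus strand), SNRPF (chr12:95858832-95858951, plus strand), HNRNPUL1 (chr19:41264252-41264371, plus strand), PRPF38A (chr1:52404482-52404601, plus strand) and PRPF8 (chr17:1684868-1684987, minus strand). Capitals mark any of the 8 words in either direction, so that CTTCCGG is the ETS word, CCGCCAT the YY1 word and ATTGG the NFY word read on the other strand.
SF3B4: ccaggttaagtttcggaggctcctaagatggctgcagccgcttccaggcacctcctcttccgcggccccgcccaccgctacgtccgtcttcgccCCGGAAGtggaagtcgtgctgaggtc
SNRPE: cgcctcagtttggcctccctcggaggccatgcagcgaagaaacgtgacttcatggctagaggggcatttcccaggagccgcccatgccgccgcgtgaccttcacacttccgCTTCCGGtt
SNRPD1: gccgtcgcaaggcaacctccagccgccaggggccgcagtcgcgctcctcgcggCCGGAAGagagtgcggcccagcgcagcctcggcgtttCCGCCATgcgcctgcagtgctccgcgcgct
SNRPF: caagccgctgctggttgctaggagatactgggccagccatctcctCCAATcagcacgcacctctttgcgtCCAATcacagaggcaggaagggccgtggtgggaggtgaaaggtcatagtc
HNRNPUL1: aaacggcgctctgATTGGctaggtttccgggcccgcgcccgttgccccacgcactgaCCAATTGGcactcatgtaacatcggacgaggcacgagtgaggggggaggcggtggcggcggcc
PRPF38A: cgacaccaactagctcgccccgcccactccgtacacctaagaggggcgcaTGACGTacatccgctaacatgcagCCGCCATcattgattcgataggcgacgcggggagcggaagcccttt
PRPF8: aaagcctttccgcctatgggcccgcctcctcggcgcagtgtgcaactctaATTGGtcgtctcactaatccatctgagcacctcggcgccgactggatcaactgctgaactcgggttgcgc
SF3B4 and SNRPE hold the ETS word next to the start, with its near end 20 and 3 bases before it. SNRPD1 holds both the ETS and the YY1 word. SNRPF, with the second highest CHD8 fold of all members, holds the NFY word 2 times and 4 CpG dinucleotides in these 120 bases, whereas HNRNPUL1 holds the NFY word 3 times, 2 of them overlapping on opposite strands. PRPF38A holds the CREB and the YY1 word, and PRPF8 the NFY word.

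In the full peak lists, the YY1 word was found only among members with TRRAP, although most of those lacked it. That depended on the threshold. With only peaks above each list's median rank, HNRNPL, PRPF38A, PRPF38B, SF3A1, SNRPD1 and SNRPD3, which hold the word, were left with CHD8 alone. In the full lists the word was present at 16 of 58 genes with both peaks (27.6%, 17.8 to 40.2), at 0 of 21 with CHD8 alone (up to 15.5%) and at 0 of 8 with neither. Over all genes the shares were 12.8% with both and 11.1% with CHD8 alone, a far smaller gap. The ETS word went the other way, with 15 of 58 (25.9%) and 9 of 21 (42.9%), and this order held over all genes too, at 19.2% and 26.4%. The E-box, the word that MYC proteins bind, was present at 10 of 87 members (11.5%), beside 8.75% of all genes, and the E2F word at 14 (16.1%), beside 10.3%. The SP word was less frequent in the members, at 29 of 87 (33.3%), than in all genes (44.5%). With 8 words and several groups compared, single shares are descriptions only.

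**Figure D5:**
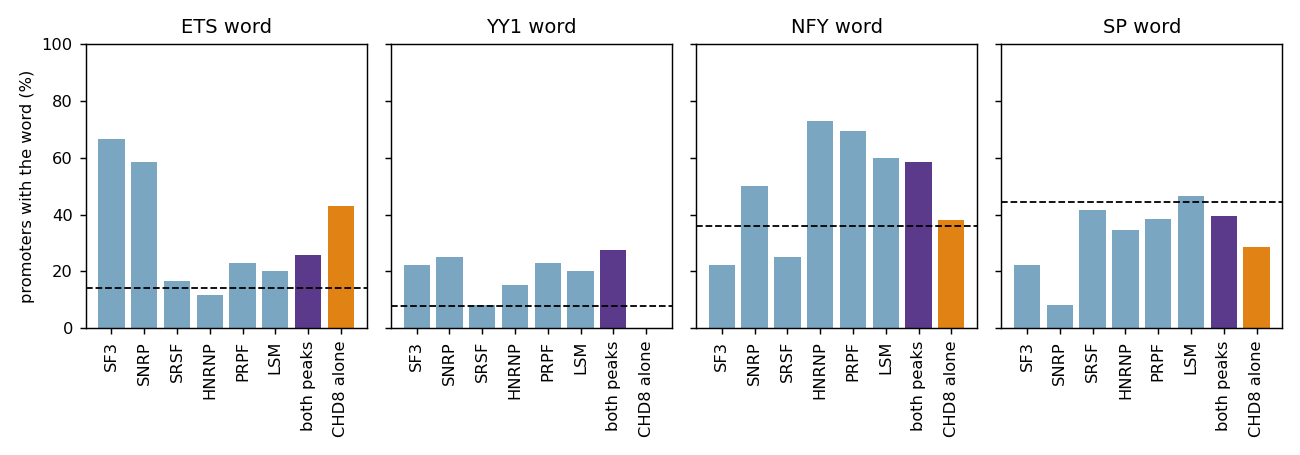
Share of promoters (vertical axes, percent) that hold the ETS, YY1, NFY or SP word in 250 bases before to 50 after the start, for the 6 name groups, the 58 members with both peaks and the 21 with CHD8 alone; dashed lines are the shares of all 19970 genes. ETS bars are tallest in SF3 (66.7%) and SNRP (58.3%), and the YY1 bar is 0 at genes with CHD8 alone in the full peak lists.

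Spliceosome genes with other names served as a comparison. Of 66 such genes, 65 had CHD8 (98.5%, 91.9 to 99.7) and 37 had both peaks (56.1%, 44.1 to 67.4), and BCAS2, a subunit of the PRPF19 complex, was the only one with no peak. The share with TRRAP among CHD8-bearing genes was 37 of 65 (56.9%). This was close to the SF3, SNRP, PRPF and LSM genes (61.7%) and below the interval of the SRSF and HNRNP genes. The list holds both core and transcript-binding genes, PTBP1 among the latter, and was not divided into them. Their median folds were 17.7 for CHD8 and 10.1 for TRRAP, beside 19.0 and 10.1 in the members, so high folds were shared by spliceosome genes of other names. The CHD8 folds of SRRM2 (61.9), PTBP1 (57.5) and LUC7L3 (57.0) were above the highest of any member. The highest TRRAP fold was 34.0 in the window of CDC40, a second-step factor, above that of any member. That peak (chr6:110178731-110180290) ended before the CDC40 start, with its summit at −748 bp, and the CHD8 fold of CDC40 was 10.6. Next came PTBP1, the repressor of neuronal exons in progenitor cells, and LUC7L3 at 15.8 each. RNPS1 followed at 15.3, and CASC3 and SRRM2 at 14.9. CASC3 is named because it was level with SRRM2.

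The lists held 23393 CHD8 and 14735 TRRAP peaks, and the read totals behind them are unknown. All 8 neural stem cell markers had a CHD8 promoter peak and 6 of them both (NES, SOX2, HES1, VIM, PAX6 and SOX1), while 0 of 4 glial and 0 of 3 mesoderm or blood markers had a peak. Among pluripotency markers LIN28A and DPPA4 had both peaks and POU5F1, NANOG and ZFP42 had none, and among neuronal markers MAP2 and TUBB3 had both and the other 3 none. Occupancy is not expression, so these counts describe the chromatin of the labelled cells only.

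The thresholds bear on TRRAP more than on CHD8. With peaks above each list's median rank only, 43.7% of the members kept both peaks, beside 16.8% of all genes, because 20 members lost TRRAP, among them SRSF5, SNRPF and SF3A1. Counting peaks at any annotated start added HNRNPF and SNRPN to the genes with both, and a window of 500 bp took SRSF5 out of them.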

How the data were processed

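Peaks were read from the lists deposited for 1 CHD8 and 1 TRRAP library, and no label says that either is one of several cultures. The submitters' processing notes name HISAT2, MACS2 2.1.1.20160309 and GRCh38, without role or order. The control, the filters and the read totals are not given in the sources used here, so depth is unknown. For each peak the authors deposited a fold (a ratio over background), a −log10 p-value and a −log10 q-value, a score and a summit. In both deposited lists the score is the −log10 q times 10, without its decimals. By name, the CHD8 list has a false discovery rate of 0.0001 and the TRRAP list one of 0.001. All sequence names of both lists occur in GRCh38 and 0 peaks ran past a sequence end.

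Starts, exons and introns came from GENCODE 44, with coordinates counted from 1. Genes with a peak in the window of 1000 bp on each side of the canonical start were counted, and Wilson 95% intervals cover counting error only. Copy number is the number of times a 32-base word occurs in the genome. Sequences and words were read from the GRCh38 reference, which is not the sequence of these cells. Window counting was tested on simulated peaks. Tables were handled in pandas 2.3.3 and numpy 2.4.6 under Python 3.11.15. The genome was read with samtools 1.23.1 and pysam 0.24.0, words were counted with numba 0.67.0, intervals came from scipy 1.17.1, and plots from matplotlib 3.10.9. No test across genes was run, because each antibody had 1 library.

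Genes were named by rule: the strongest and weakest peak of each group and list, members lacking a peak, the widest CHD8 peaks, the strongest peaks elsewhere in the gene, head-to-head members by CHD8 fold, a panel of 26 well-known members and up to 6 other spliceosome genes. The values of 1 member are not reported here, although counts and medians include it. Genes named beyond that rule were chosen after their values were seen. The members, gene lists and words were chosen with earlier results of these data known. Alternatives were other windows, starts, thresholds and overlap rules.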

Additional observations from a re-analysis of the deposited data

How the results depend on the processing

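The share of members with CHD8 stayed within the interval of its value under every alternative tried. Peaks above the median rank gave 43.7% of members with TRRAP and 43.7% with both, beside 19.6% and 16.8% of all genes. By group they gave both at 22.2% of SF3, 41.7% of SNRP and 7.69% of PRPF genes. A fold of at least 8 in each list, added after the data were seen, gave both at 47.1%. Restriction to CpG ratios of at least 0.6, also added then, gave both at 90% of HNRNP genes. Summits within 200 bp in place of a shared base gave 58.7% of TRRAP peaks. Counted by the summit, HNRNPDL became TRRAP alone, since its CHD8 summit is outside the window. The TRRAP list restricted to q of at most 0.0001 changed the class of no member. No paired analysis was possible because each antibody had 1 library, and leaving out a replicate was not possible for the same reason. Depth is unknown, so a missing peak is a peak not called at these thresholds and not absence of the protein.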
